A study of Mus musculus with 9 samples.

Results

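miR-146a, miR-146b and miR-155 are microRNAs (miRNAs). Such short RNAs guide the silencing of messenger RNAs that pair with them, and all 3 are tied to the inflammatory transcription factor NF-κB. They were followed in colon small RNA libraries of wild-type C57BL/6J mice. Of the 4 mature forms sought by name, 3 were analysed, mmu-miR-146a-5p, mmu-miR-146b-5p and mmu-miR-155-5p (the prefix for mouse is left out from here on), out of 1155 entries in the count table. miR-146a-3p was not analysed here. All 3 passed the filter on low counts, which kept 433 entries.

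All mice ate a normal diet. The Control group drank water. The DSS group drank water with 2.5% (w/v) dextran sulfate sodium (DSS), a polymer toxic to the colon epithelium that serves as a mouse model of colitis. The DSS_RJA group had the same DSS water and was gavaged every day with 0.2 mL of royal jelly acid (RJA) at 10 mg/kg body weight. No gavage is recorded for the other groups, so RJA and gavage cannot be told apart. Each group held 3 samples of colon. The labels do not name the animals, so p-values reflect only how far these samples differ, which may be technical.

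When Toll-like receptors or cytokine receptors activate NF-κB, it raises transcription of the miR-146a gene, and mature miR-146a in turn lowers the adaptor proteins IRAK1 and TRAF6 that carry the signal, which makes a negative feedback loop. miR-146b is a paralog from another chromosome with the same seed, the stretch at the 5′ end that chooses targets. miR-155 is made from the noncoding transcript Mir155hg (BIC) in activated macrophages and lymphocytes, and it promotes inflammatory responses by lowering inhibitors such as SOCS1 and SHIP1.

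The mature sequences show why the pair is read together and miR-155 apart. They were taken from RefSeq (GRCm38.p6), written 5′ to 3′ with the seed, bases 2 to 8, in capitals.

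miR-146a-5p: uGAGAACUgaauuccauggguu
miR-146b-5p: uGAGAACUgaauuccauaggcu
miR-155-5p: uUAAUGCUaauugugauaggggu

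miR-146a-5p and miR-146b-5p were identical at 20 of their 22 bases. Counted from the 5′ end, with the miR-146a-5p base first, the differences were G18A and U21C, so that the first 17 bases could not tell them apart. The sources used here do not say how reads matching both were assigned, and a read that ends early or carries an error near its 3′ end could be counted to either. No other mature mouse miRNA of the RefSeq table had the seed GAGAACU, and none shared UAAUGCU with miR-155-5p. The 2 seeds differed at 4 of 7 bases.

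The precursors differ more than the mature forms do. They are shown with the 5p arm in capitals.

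Mir146: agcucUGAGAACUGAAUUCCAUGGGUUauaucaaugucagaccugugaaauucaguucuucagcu
Mir146b: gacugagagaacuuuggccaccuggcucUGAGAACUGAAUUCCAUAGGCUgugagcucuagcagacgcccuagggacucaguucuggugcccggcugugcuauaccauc
Mir155: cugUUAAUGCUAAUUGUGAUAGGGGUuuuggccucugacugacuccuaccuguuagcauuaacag

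In GRCm38 the 65-base Mir146 hairpin, the precursor of miR-146a, is on chromosome 11, minus strand, 43374397 to 43374461, and overlaps no other gene of the GENCODE M21 annotation. The 109-base Mir146b hairpin lies on the plus strand of chromosome 19, from 46342762 to 46342870, in an intron of Mfsd13a. The 65-base Mir155 hairpin lies on the plus strand of chromosome 16, from 84714140 to 84714204, in an exon of Mir155hg. Which build the authors used is not stated in the labels.

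Library totals were 5985153 to 8280980 counts, of which miR-143-3p of smooth muscle took 66.4% to 75.5%. Levels are CPM, counts scaled to a common library total after TMM normalization, and an SD is over 3 samples. The 10 epithelial marker miRNAs (the miR-200 family, miR-192, miR-194, miR-215, miR-375 and miR-203) and the 7 of smooth muscle were above 0 in every library. The DSS_RJA libraries stood apart from each other. On the first principal component, with 56.8% of the variance, DSS_RJA 1 lay at 9.31, within the Control range of 7.94 to 9.51, and DSS_RJA 3 at -10.3, within the DSS range of -14.4 to -3.04.

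miR-146a-5p was the most abundant of the 3 and was ordered by treatment group. It took place 36 among all 1155 entries by mean level, miR-146b-5p place 40 and miR-155-5p place 118. Its levels were 759, 866 and 754 CPM in the Control libraries, from 4946, 6462 and 4615 reads. They were 2398, 1748 and 1553 CPM in the DSS libraries, from 19570, 12548 and 13931 reads. In DSS_RJA they were 1326, 1294 and 1329 CPM, from 7065, 8531 and 8640 reads. No group overlapped another. Among tested miRNAs, 18.9% had DSS above Control without overlap, 7.16% had DSS_RJA below DSS and 10.2% had DSS_RJA above Control. The share with every separation at once was not counted. DSS was highest and DSS_RJA was between. In CPM the DSS_RJA libraries were within 1.03-fold of each other (coefficient of variation 1.48%, against 8.01% in Control and 23.3% in DSS). This closeness depended on TMM scaling, whose factors were 0.89, 1.07 and 1.06 in DSS_RJA. In the deposited TPM, which has no TMM scaling, the DSS_RJA libraries had 1180, 1383 and 1402. Control had 658, 780 and 654 TPM and DSS had 2670, 1944 and 1841 TPM, so the groups still did not overlap.

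**Figure D1:**
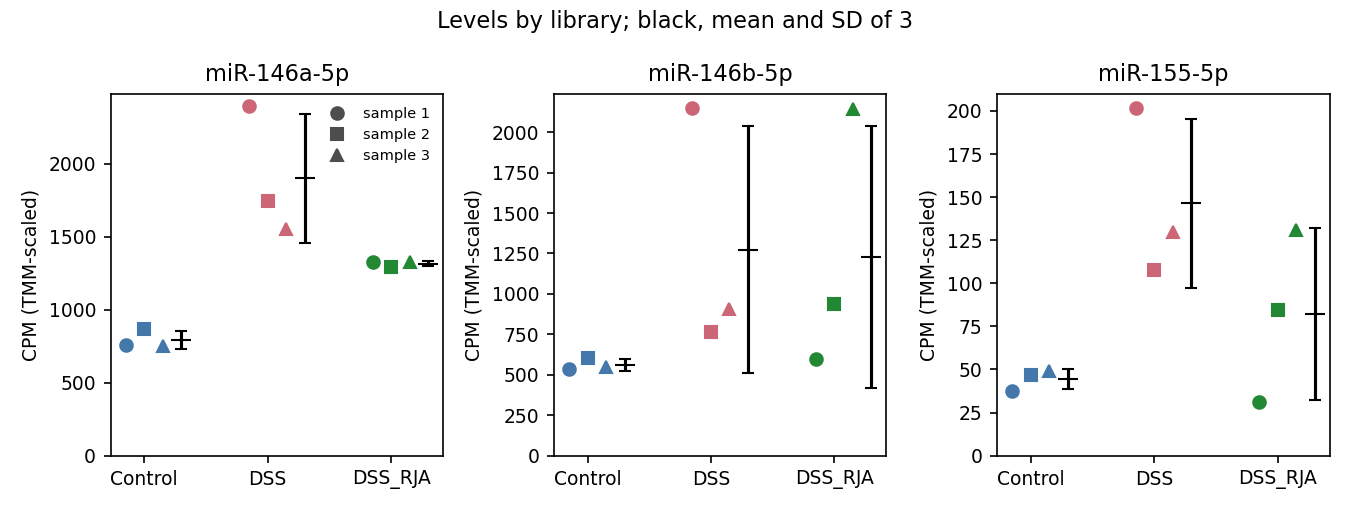
Levels of the 3 miRNAs in each library, as CPM on axes that start at 0. Coloured symbols are samples 1 to 3 of each group, and black marks are the mean and SD of 3 samples. The DSS_RJA samples of miR-146a-5p lie together between 1294 and 1329 CPM, while those of miR-146b-5p run from 599 to 2141 CPM and those of miR-155-5p from 31.0 to 131 CPM.

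miR-146b-5p did not follow that order. Its levels were 537, 604 and 547 CPM in Control, 2152, 763 and 906 CPM in DSS, and 599, 939.7 and 2141 CPM in DSS_RJA. Both DSS 1 and DSS_RJA 3 were far above the rest, DSS_RJA 1 lay within the Control range, and the DSS and DSS_RJA groups overlapped. The highest library was 1.13 times the lowest in Control, 2.82 times in DSS and 3.57 times in DSS_RJA.

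miR-155-5p was the scarcest, at 37.7, 46.7 and 49.0 CPM in Control, from 246, 348 and 300 reads. Its levels were 202, 108 and 129.7 CPM in DSS, from 1645, 774 and 1163 reads. In DSS_RJA they were 31.0, 84.5 and 131 CPM, from 165, 557 and 851 reads. DSS_RJA 1 was below every Control library and DSS_RJA 3 was within the DSS range. The 165 reads of DSS_RJA 1 carry an exact Poisson interval (95%) of 141 to 192, which covers counting error only.

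The other arms were near the limit of detection and were not tested. miR-146b-3p had 0 to 2 reads in Control, 2 to 10 in DSS and 0 to 3 in DSS_RJA. miR-155-3p had 1 to 3 reads in Control, 2 to 10 in DSS and 2 to 23 in DSS_RJA, and the 23 reads were those of DSS_RJA 3.

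The comparison of DSS with Control asked which of these miRNAs differ in colitis. miR-146a-5p, the feedback miRNA, rose 2.40-fold, from 793 ± 63.5 to 1900 ± 442 CPM (mean ± SD, n = 3). On the log2 scale this was 1.26 ± 0.19 (standard error), and it passed over all 433 miRNAs (edgeR quasi-likelihood test with Benjamini-Hochberg adjustment, adjusted p = 0.00762), where 2.31% of tested miRNAs were called higher, 1.62% lower and 3.93% in either direction. miR-155-5p had the larger estimate, 1.72 ± 0.45, from 44.5 ± 5.95 to 146.4 ± 49.1 CPM, but narrowly missed the threshold (edgeR adjusted p = 0.0554). miR-146b-5p, at 562.6 ± 36.4 and 1274 ± 764 CPM, gave 1.18 ± 0.49 and did not pass (edgeR adjusted p = 0.128). All 3 had DSS libraries above all Control libraries, as did 18.9% of tested miRNAs. In bulk colon, a change in the number of cells that make a miRNA and a change in RNA per cell cannot be told apart.

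The estimates for miR-146a-5p and miR-146b-5p were thus close, 1.26 and 1.18, and their standard errors were not, 0.19 and 0.49. The call for miR-146a-5p held in 18 of its 21 alternative fits, with log2 fold changes of 1.07 to 1.63, and also for the summed pair of paralogs (1.23, edgeR adjusted p = 0.0485). It ended without Control 1 (edgeR adjusted p = 0.0545), without Control 3 (0.0505) and with the leukocyte marker level in the fit (0.0967). miR-155-5p passed in 10 of 21 alternatives, DESeq2 (adjusted p = 0.00235) and limma-voom (adjusted p = 0.0494) among them. miR-146b-5p was 0.58 without DSS 1, the library where it was highest, and passed in 2 of its 21 alternatives.

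**Figure D2:**
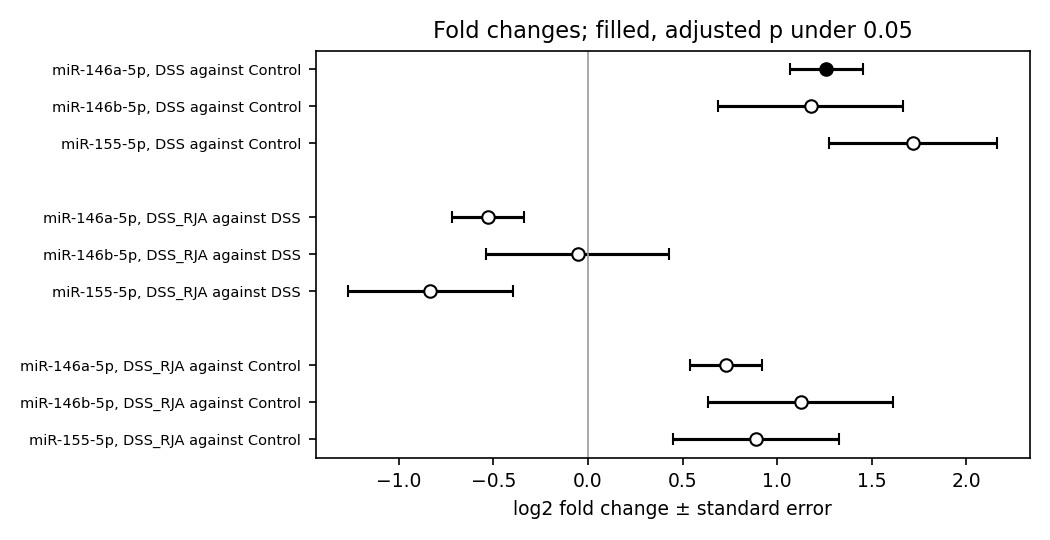
Log2 fold changes of the 3 miRNAs in the 3 comparisons, on the x axis, with edgeR standard errors as bars. The filled point, miR-146a-5p in DSS against Control at 1.26, passed at an adjusted p under 0.05 over all 433 miRNAs, and the open points did not.

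The comparison of DSS_RJA with DSS asked whether the levels differ when RJA is given. None of the 3 passed in edgeR, where 0.231% of all tested miRNAs were called. The level of miR-146a-5p was 1316 ± 19.4 CPM with RJA, set beside 1900 ± 442 CPM without it. Its log2 fold change was -0.53 ± 0.19 and missed the threshold (edgeR adjusted p = 0.229). Before adjustment edgeR gave 0.0198 for it, and 14.1% of tested miRNAs were under 0.05. Its DSS_RJA libraries lay below all DSS libraries, as did those of 7.16% of tested miRNAs. It was negative in each of its 21 alternatives, from -0.70 to -0.33, and passed in none, nor did the summed pair of paralogs at -0.32. miR-155-5p was at 82.1 ± 49.99 CPM against 146.4 ± 49.1 CPM (-0.83 ± 0.43, edgeR adjusted p = 0.395). miR-146b-5p was at 1227 ± 810 CPM against 1274 ± 764 CPM (-0.05 ± 0.48, edgeR adjusted p = 0.961), and its sign turned when DSS 1 (0.55), DSS_RJA 1 (0.25) or DSS_RJA 2 (0.11) was left out.

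Set against Control, miR-146a-5p had a DSS_RJA to Control fold of 1.66, or 0.73 ± 0.19 on the log2 scale. The adjusted edgeR p was 0.256, and the unadjusted edgeR p was 0.00345. Its groups did not overlap, as in 10.2% of tested miRNAs in that direction. edgeR called none of the 433 miRNAs here (0%), against 62 (14.3%) at an unadjusted p under 0.05, 2 called by DESeq2 and 0 by limma-voom. miR-146b-5p had a log2 fold change of 1.12 ± 0.49 (edgeR adjusted p = 0.340), which was 0.48 without DSS_RJA 3. miR-155-5p had 0.89 ± 0.44 (edgeR adjusted p = 0.393), which was 0.42 without DSS_RJA 3 and 1.29 without DSS_RJA 1. For these 2 miRNAs DSS_RJA 1 was within or below the Control range. The 3 comparisons share libraries, so their fold changes are not independent.

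Whether the paralogs respond alike was tested on their ratio within each library, which does not depend on scaling between libraries. In Control, miR-146a-5p exceeded miR-146b-5p by a nearly constant factor, 1.41, 1.43 and 1.38. The ratios were 1.11, 2.29 and 1.71 in DSS and 2.21, 1.38 and 0.621 in DSS_RJA. In DSS_RJA 3 alone among the 9 libraries, miR-146b-5p was the more abundant. The SD of the log2 ratio was 0.03 in Control, 0.52 in DSS and 0.93 in DSS_RJA.

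As a share of reads of the pair, miR-146a-5p made up 58.6%, 58.9% and 58.0% in Control. It made up 52.7% to 69.6% in DSS and 38.3% to 68.9% in DSS_RJA. The Wilson intervals (95%), which cover counting error only, reached at most 1.08 percentage points to either side. No difference in the mean log2 ratio between groups passed the test, with 0.49 in Control, 0.71 in DSS and 0.31 in DSS_RJA (exact permutation test over 1680 arrangements of the samples, p = 0.729, adjusted p = 0.729 over the 3 ratios). The libraries of a treated group went both ways around the Control ratio.

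**Figure D3:**
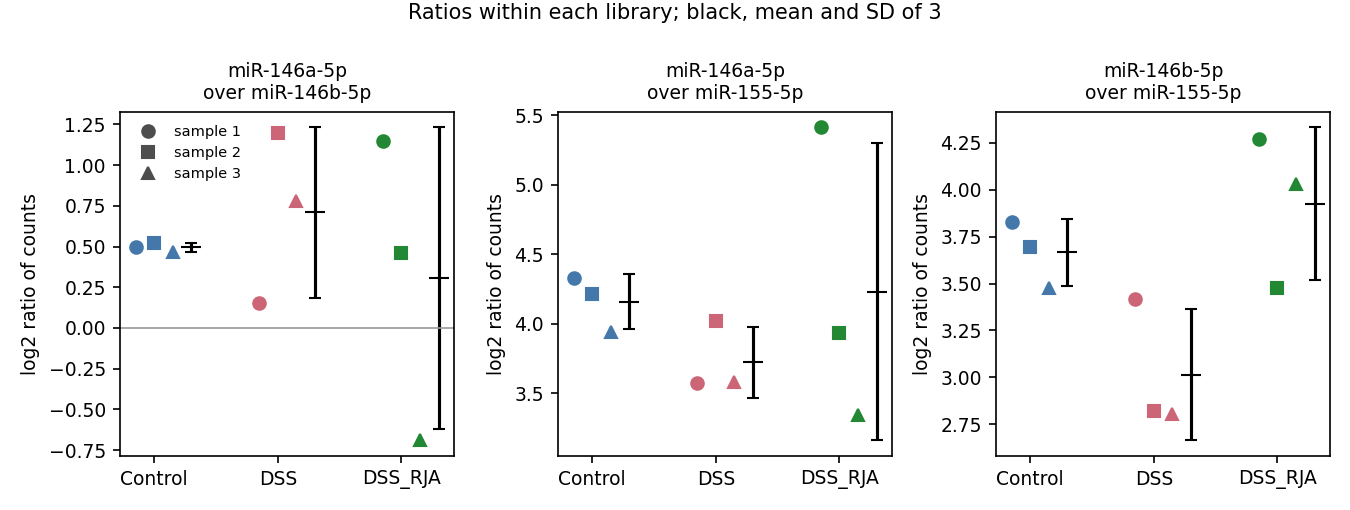
Log2 ratios of read counts between pairs of the 3 miRNAs within each library, with coloured symbols for samples and black marks for the mean and SD of 3. For miR-146a-5p over miR-146b-5p the Control samples lie between 0.46 and 0.52 and the DSS_RJA samples between -0.69 and 1.15.

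The ratio to miR-155-5p sets the feedback miRNA against the pro-inflammatory one. miR-146a-5p had 20.1, 18.5 and 15.4 reads for each read of miR-155-5p in Control. The values were 11.9, 16.2 and 12.0 in DSS and 42.7, 15.3 and 10.1 in DSS_RJA. The mean log2 ratio was 4.16 ± 0.20 (SD, n = 3) in Control. It was 3.72 ± 0.25 in DSS and 4.23 ± 1.07 in DSS_RJA, and the exact permutation test gave p = 0.661 (adjusted p = 0.729). DSS_RJA held both the highest and the lowest ratio of the 9 libraries.

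For miR-146b-5p over miR-155-5p the mean log2 ratio was 3.67 ± 0.18 in the 3 Control libraries, 3.01 ± 0.35 in the 3 DSS libraries and 3.93 ± 0.41 in the 3 DSS_RJA libraries (SD). All DSS libraries, at 3.42, 2.82 and 2.80, lay below the other 6, the lowest of which was 3.47. The exact permutation test gave p = 0.0357, which did not pass over the 3 ratios (adjusted p = 0.107). Without DSS_RJA 2 it did (adjusted p = 0.0321). With 3 samples against 3 the smallest exact p of a pairwise comparison is 0.1, which DSS reached against Control and against DSS_RJA for this ratio.

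The members were then set beside marker miRNAs of other colon cells measured in the same libraries. The 6 leukocyte markers (both arms of miR-142a and of miR-223, miR-150-5p and miR-342-3p) were all tested and detected in every library. Their summed level was 578 to 726 CPM in Control, 1278 to 2276 CPM in DSS and 315 to 1500.2 CPM in DSS_RJA. In DSS against Control all 6 had positive log2 fold changes, against 221 of 433 over all tested miRNAs, with a median of 1.56 against 0.01. Of the 6 only miR-342-3p was called (1.61 ± 0.34, edgeR adjusted p = 0.0325), where 2.31% of tested miRNAs were called higher. miR-150-5p, the most abundant, averaged 473 CPM in Control and 1348 CPM in DSS (edgeR adjusted p = 0.101). The arms of miR-223 had 2.64 ± 0.68 (3p) and 2.47 ± 0.65 (5p), each at an edgeR adjusted p of 0.0554. Those of miR-142a overlapped Control, at 0.43 ± 0.46 (5p, edgeR adjusted p = 0.560) and 0.68 ± 0.56 (3p, edgeR adjusted p = 0.433). The rise was thus not shared evenly by the markers. The 10 epithelial markers summed to 92509 to 113541 CPM in Control, 7955 to 35786 CPM in DSS and 9458 to 96273 CPM in DSS_RJA. All 10 had negative values in DSS, against 212 of 433 over all tested, with a median of -2.42. None of the 10 was called, where 1.62% of tested miRNAs were called lower. The most abundant, miR-192-5p, had -2.67 ± 0.80 (edgeR adjusted p = 0.0748). The 2 endothelial markers, the arms of miR-126a, had opposite signs, with miR-126a-3p at 0.28 ± 0.21 (edgeR adjusted p = 0.399) and miR-126a-5p at -0.44 ± 0.27 (edgeR adjusted p = 0.296). The 7 smooth muscle markers had a median of -0.34, and the leading one, miR-143-3p, was at -0.34 ± 0.13 (edgeR adjusted p = 0.110).

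miR-155-5p went with the leukocyte markers library by library. Ordered by the mean log2 CPM of those markers, from 7.03 in DSS 1 to 4.58 in DSS_RJA 1, the libraries stood in the same order as by the CPM of miR-155-5p, except that Control 2 and Control 3 changed places. In the deposited TPM, without TMM scaling, miR-155-5p was higher in DSS 3 (154) than in DSS_RJA 3 (138), the reverse of their order in CPM. The libraries highest in miR-155-5p were also the lowest in epithelial mean. They were DSS 1, DSS_RJA 3, DSS 3, DSS 2 and DSS_RJA 2, at 8.32, 8.32, 8.74, 10.29 and 10.66. A link to leukocyte markers and a link to epithelial loss thus cannot be told apart here. The log2 level of miR-155-5p minus that mean was 0.44 ± 0.13 (SD, n = 3) in Control. It was 0.64 ± 0.09 with DSS alone and 0.49 ± 0.21 with RJA, over a range in its own log2 level of 4.95 to 7.66. miR-146b-5p was highest in the libraries with the most leukocyte signal, DSS 1 (7.03) and DSS_RJA 3 (6.67). These 2 libraries also had the lowest epithelial means, 8.32 each, where Control had 11.45 to 11.71. DSS 3, with a leukocyte mean of 6.46 and an epithelial mean of 8.74, had 906 CPM of miR-146b-5p. DSS_RJA 2, at 5.67 and 10.66, had 939.7 CPM. The order of these 2 libraries depended on TMM scaling. In the deposited TPM miR-146b-5p was at 1074 in DSS 3 and 1005 in DSS_RJA 2.

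In CPM, miR-146a-5p was nearly flat across the DSS_RJA libraries, whose leukocyte means were 4.58, 5.67 and 6.67. Their epithelial means were 11.57, 10.66 and 8.32. In TPM, without TMM scaling, miR-146a-5p was less flat in these libraries, at 1180, 1383 and 1402. There miR-146b-5p had 534, 1005 and 2258 TPM, and miR-155-5p had 27.6, 90.3 and 138 TPM. In DSS_RJA 1, the leukocyte mean was below and the epithelial mean within the Control range. Its miR-146a-5p was 1326 CPM, above the highest Control value of 866 CPM. Its miR-146b-5p and miR-155-5p were at 599 and 31.0 CPM, within and below the Control range.

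**Figure D4:**
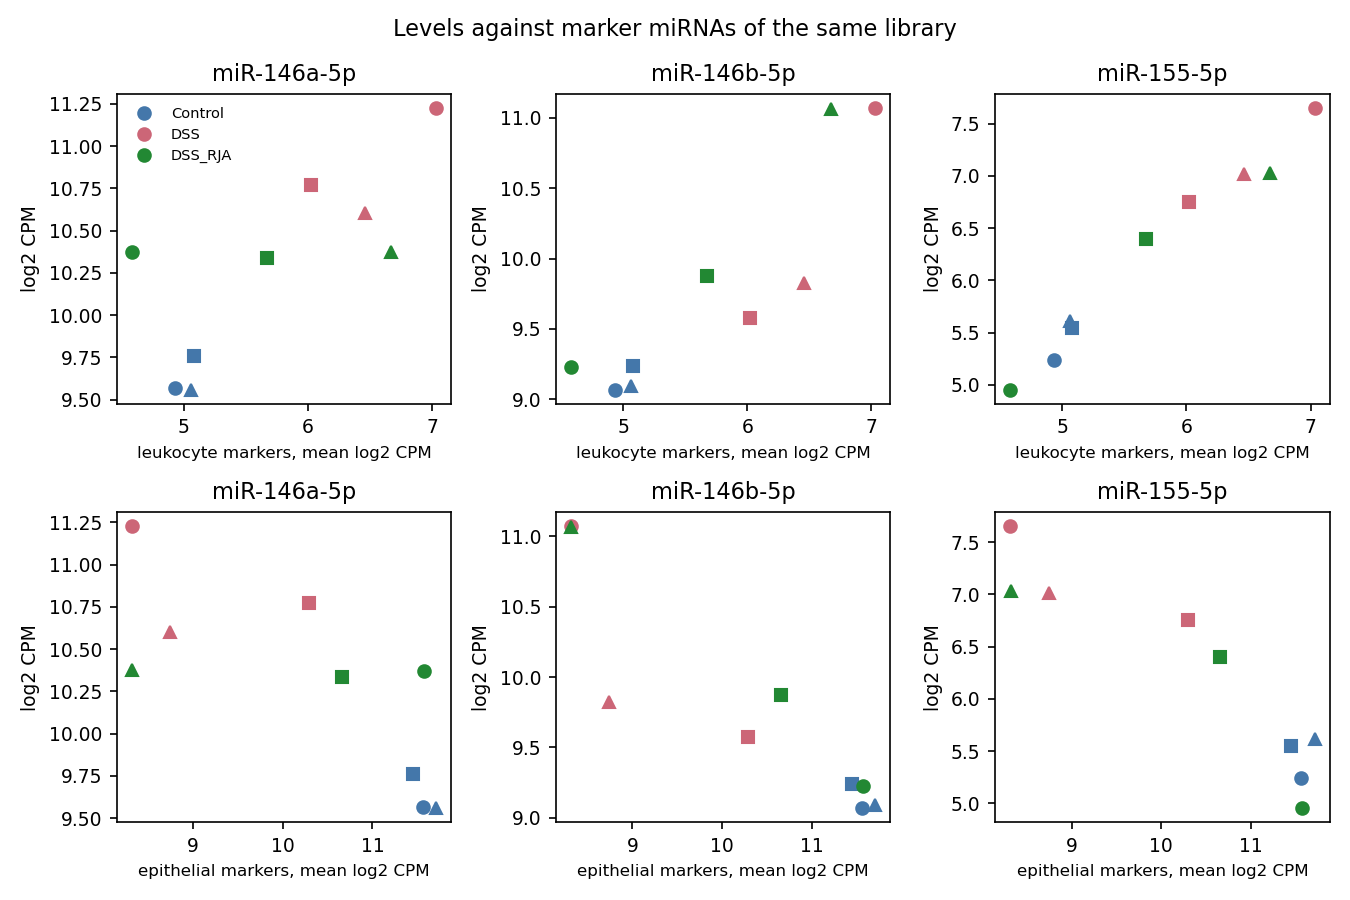
Log2 CPM of each miRNA against the mean log2 CPM of 6 leukocyte markers (top) or 10 epithelial markers (bottom) in the same library. Symbols are single libraries, coloured by group, with circles, squares and triangles for samples 1, 2 and 3. In the right-hand panels miR-155-5p runs from 4.95 to 7.66 along the leukocyte axis, while in the left-hand panels the DSS_RJA samples of miR-146a-5p stay between 10.34 and 10.38.

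With a marker mean as a covariate in the edgeR fit, the DSS against Control estimates moved apart. That of miR-146a-5p was 1.14 ± 0.25 with the epithelial mean (adjusted p = 0.0394) and 1.11 ± 0.26 with the leukocyte mean (adjusted p = 0.0967), against 1.26 ± 0.19 with neither. That of miR-155-5p was 0.49 ± 0.35 and 0.22 ± 0.25, against 1.72 ± 0.45 (edgeR adjusted p = 0.690 and 0.773). That of miR-146b-5p was -0.34 ± 0.31 and -0.43 ± 0.30, against 1.18 ± 0.49 (edgeR adjusted p = 0.718 and 0.674). The marker means themselves differed between the groups, at 5.02 ± 0.08 in Control and 6.51 ± 0.51 in DSS for leukocytes, so group and marker level can be told apart only in part. The differences between these covariate estimates were themselves not tested.

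**Figure D5:**
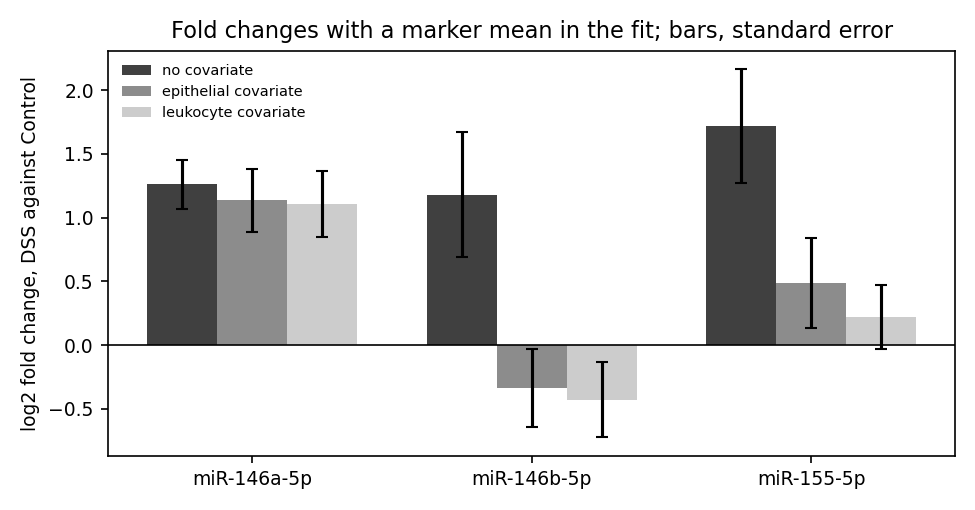
Log2 fold change of each miRNA in DSS against Control, on the y axis, with no covariate, with the epithelial marker mean and with the leukocyte marker mean in the fit. Error bars are standard errors. Those of miR-146a-5p are 1.26, 1.14 and 1.11, while those of miR-146b-5p are 1.18, -0.34 and -0.43.

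Other miRNAs of the pathway were taken from lists. Of 11 miRNAs reported to be induced by NF-κB or by Toll-like receptors, the members left out, 9 were tested. In DSS against Control 2 rose and none fell, 8 of the 9 values were positive, and the median was 0.56. Over all 433 tested miRNAs 2.31% were called higher and 1.62% lower, 221 values were positive and the median was 0.01. Those that rose were miR-212-3p (2.93 ± 0.40, edgeR adjusted p = 0.00585), from 2.62 to 20.2 CPM, and miR-132-3p (2.22 ± 0.37, edgeR adjusted p = 0.0119), from 23.8 to 111.1 CPM. Both come from 1 transcript that also responds to CREB. The list thus does not hold 9 independent values, and its counts of signs and medians in each comparison are descriptive. In DSS against Control the median was the value of let-7e-5p, which was not called (edgeR adjusted p = 0.0749). miR-21a-5p, the most abundant of the list, was at 89616 CPM in Control, set beside 96478 CPM in DSS (0.11 ± 0.28, edgeR adjusted p = 0.827). In DSS_RJA against DSS none of the 9 passed, where 0.231% of all tested miRNAs did. Of the 9 values 7 were negative, against 209 of 433 over all tested, and the median was -0.36, against 0.02. In DSS_RJA against Control none passed, where 0% of all tested miRNAs did. Here 6 of the 9 were positive, against 226 of 433 over all tested, and the median was 0.20, against 0.03.

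The other list held 7 miRNAs reported to lower proteins of the NF-κB pathway, such as miR-223-3p, which lowers IKKα in human monocytes. All 7 were tested and none passed in any comparison, where 3.93%, 0.231% and 0% of all tested miRNAs did in the order DSS against Control, DSS_RJA against DSS, DSS_RJA against Control. The median was 0.23 for DSS against Control, beside 0.01 over all tested. With RJA it was -0.35 against DSS alone, beside 0.02, and -0.19 against Control, beside 0.03. miR-10a-5p, the most abundant of them, had 0.23 ± 0.23, -0.43 ± 0.24 and -0.19 ± 0.23 in that order (edgeR adjusted p = 0.536, 0.418 and 0.722). miR-223-3p and miR-126a-3p of this list are also leukocyte and endothelial markers.

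The miRNAs with the pattern most like each member over the 9 libraries were found by the root mean square difference of centred log2 levels, which is 0 for the same pattern. Nearest to miR-146a-5p were miR-129-1-3p (0.24), miR-383-5p (0.26), miR-9b-3p (0.26), miR-9-5p (0.26) and miR-433-3p (0.28). miR-9-5p and miR-9b-3p had nearly the same mean levels, 489 and 487 CPM in DSS, and may share reads. Nearest to miR-155-5p were miR-342-3p (0.29), miR-342-5p (0.32), miR-132-3p (0.33), miR-31-5p (0.33) and miR-150-5p (0.41), of which miR-342-3p and miR-150-5p are leukocyte markers. Nearest to miR-146b-5p were miR-541-5p (0.31), miR-214-5p (0.36), miR-125b-1-3p (0.38), miR-190b-5p (0.39) and miR-132-5p (0.40).

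The paralogs, which share a seed, differed by 0.53 on this measure. That placed miR-146b-5p at 122 of 432 in likeness to miR-146a-5p, and miR-146a-5p at 36 of 432 in likeness to miR-146b-5p. The measure depends on how far a miRNA varies as well as on its pattern. A flat profile would differ by 0.53 from miR-146a-5p, by 0.74 from miR-146b-5p and by 0.88 from miR-155-5p. Places in likeness to different members are thus not on 1 scale. Between miR-146b-5p and miR-155-5p the value was 0.47, place 9 in likeness to miR-155-5p and place 15 in likeness to miR-146b-5p. All these levels come from the same libraries and scaling, so the values describe these 9 libraries and no more.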

How the data were processed

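Small RNA of 9 colon samples was ligated to adaptors, amplified by PCR, selected for inserts of 18 to 40 bp and sequenced as single reads, per the labels' protocols. Bowtie and DESeq appear in the submitters' processing notes, with no role given. For each mature miRNA the authors deposited its read counts, not normalized, and TPM values that equal the count over the sample total with no term for length, per the file headers and the values. Reads without molecular identifiers are not independent molecules, so intervals cover counting error only.

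The deposited counts went into edgeR 4.0.16 (R 4.3.3) unchanged. filterByExpr with a minimum count of 10 kept 433 of 1155 entries, library sizes were scaled by TMM, and all 9 samples entered 1 quasi-likelihood fit by group, leaving 6 residual degrees of freedom, with Benjamini-Hochberg adjustment over the 433 at a threshold of 0.05. Standard errors are the log2 fold change over the square root of F, which is approximate. Ratios within a library used counts plus 0.5 and exact two-sided permutation tests, adjusted over the 3 ratios that could be formed of 4 planned. DESeq2 1.42.0, limma 3.58.1 (voom, and limma-trend on log2 of TPM plus 0.1 or 1), other scalings and filters, covariates, a replicate block and leaving out each library were alternatives. The fits were tested on simulated data.

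No pair of replicates agreed within sampling noise (at least 39.5 times by chi-square per degree of freedom). The 3 members, all lists and the likeness rule were chosen with earlier results of these data known. Named miRNAs were the members, their other arms, list members that passed, the most abundant member of each list, and the 5 most like each member. The role of miR-223-3p was named afterwards, as were the values of both arms of miR-142a and of miR-223. RefSeq had a mature sequence for 962 of the 1155 entries.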

Additional observations from a re-analysis of the deposited data

How the results depend on the processing

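With 3 samples per group the spread between samples, more than the depth (165 to 19570 reads a member), limited these results. The causes of the changes below were not tested. All alternatives were planned ones, but the members and lists that some rest on were chosen with earlier results of these data known. The ratio of miR-146a-5p to its 3p arm was not run, since that arm was not analysed here.

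For DSS against Control edgeR called 17 miRNAs, 10 higher and 7 lower. There were 73 (64 higher, 9 lower) with library size alone, which moved the median of all miRNAs from 0.01 to 0.39, 73 (30 and 43) with no filter, 65 (23 and 42) by DESeq2, 38 (15 and 23) by limma-voom, 78 (63 and 15) and 86 (65 and 21) on log2 TPM plus 0.1 and 1, 88 (40 and 48) with only these groups, 5 with the epithelial and 0 with the leukocyte covariate. For DSS_RJA against DSS 1 call became 2 with RLE factors, 40 with no filter, 0 with a stricter filter, 15 by DESeq2, 0 by limma-voom, 0 and 2 on log2 TPM plus 0.1 and 1, 0 with only these groups and 10 with the epithelial covariate. For DSS_RJA against Control 0 calls became 19 with no filter, and 2 by DESeq2, on log2 TPM plus 0.1 and with only these groups. Leaving out 1 library gave 3 to 90, 0 to 37 and 0 to 1 calls in these comparisons. The replicate numbers showed no pairing of the samples (same-numbered deviations correlated at -0.46 to 0.18). Deviations from means of 3 samples cannot exclude a pairing. With the replicate block the counts were 4, 0 and 0, and miR-146a-5p in DSS against Control was 1.24 (edgeR adjusted p = 0.0497). For the ratios the block changes only the arrangements of the permutation test. Their log2 values in DSS minus Control, 0.22, -0.44 and -0.65, are therefore the main ones and could not differ.

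In DSS against Control, miR-155-5p passed at 2.09 with library size alone, 1.74 with no filter, 1.72 by DESeq2, 1.68 by limma-voom, 2.05 and 2.02 on log2 TPM plus 0.1 and 1, and 1.74 with only these groups. In that comparison miR-146b-5p passed at 1.21 with no filter, and was -0.34 and -0.43 with the epithelial and leukocyte covariates. The summed pair of paralogs, which is not miR-146b-5p alone, passed at 1.23. With the leukocyte covariate miR-146a-5p, at 1.11, did not pass. In DSS_RJA against DSS, miR-155-5p passed with no filter (-0.83), and miR-146b-5p turned to 0.46 and 0.74 with the covariates, and to 0.55, 0.25 and 0.11 without DSS 1, DSS_RJA 1 or DSS_RJA 2. In DSS_RJA against Control, miR-146b-5p (1.15) and miR-155-5p (0.91) passed with no filter.

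Leaving out 1 library, miR-146a-5p ranged from 1.07 to 1.40, -0.65 to -0.33 and 0.70 to 0.81 in the 3 comparisons in that order. miR-146b-5p ranged from 0.58 to 1.47, -0.73 to 0.55 and 0.48 to 1.46, and passed in DSS against Control at 1.21 without DSS_RJA 3. miR-155-5p ranged from 1.43 to 1.93, -1.33 to -0.47 and 0.42 to 1.29, and passed in DSS against Control without DSS 2, DSS_RJA 1 or DSS_RJA 3. The log2 ratio in DSS minus Control ranged from -0.027 (without DSS 2) to 0.49 for miR-146a-5p over miR-146b-5p, from -0.58 to -0.35 for miR-146a-5p over miR-155-5p and from -0.85 to -0.55 for miR-146b-5p over miR-155-5p. Other ratio pseudocounts changed no call.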
